A study of Mus musculus with 10 samples.

Results

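The genes described here are 35 members of the mouse pathways that make, move and sense cholesterol, together with 3 fatty acid genes that share its regulators. They were chosen by symbol, and every probe that the array annotation pairs with a member symbol was taken. Of the 35 members, 30 had a probe, with 41 probes among them, out of 16593 genes and 25697 probes in the whole table. After a filter on detection, 26 members and 33 of their probes could be tested among 9220 genes. Of these 26, 20 were detected on all 10 arrays. Mvk, Acat2, Npc1, Fdft1 and Nr1h2 were matched by no probe. Acat1, Abca1, Abcg1 and Nr1h3 had probes that did not pass the filter.

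Transcripts were measured in 5 mouse cell populations with 2 single-colour Illumina arrays each. Female neural stem cells (fNSC) and parthenogenetic neural stem cells (pNSC) are the somatic lines. The pluripotent lines are piPS-2F, induced pluripotent cells obtained from parthenogenetic NSC that overexpressed Oct4 and Klf4, pESC-B, embryonic stem cells of parthenogenetic origin that were sorted with SSEA-1, a cell surface antigen, and fESC, female embryonic stem cells labelled OG2. Parthenogenetic cells come from an egg activated without sperm and carry maternal chromosomes only. Only pESC-B is labelled as sorted, and the labels name no age, strain, culture medium or passage. The label of 1 piPS-2F array names Klf5 where the others name Klf4, and the titles of fESC carry an extra B. The design speaks of 5 samples analysed in duplicate, so each pair may be technical, each population stands for 1 line, and p-values measure only the spread between duplicates.

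Cholesterol is built in the cytosol and endoplasmic reticulum from acetyl-CoA. The mevalonate arm makes farnesyl diphosphate, the squalene arm closes the ring to lanosterol, and the sterol arm trims lanosterol to cholesterol. When membranes of the endoplasmic reticulum are poor in sterol, the escort protein Scap carries the transcription factors encoded by Srebf1 and Srebf2 to the Golgi for cleavage, and they then switch on most genes of the pathway. When sterol is plentiful, Insig1 and Insig2 hold Scap back. In the brain, which lipoproteins of the blood hardly enter, cells make their own sterol, and glial cells are known for high synthesis.

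The log2 signal is the background-corrected, quantile-normalized probe intensity on a log2 scale, and it compares samples within a probe, not different probes. Calls of higher or lower need an adjusted p under 0.05 together with a 2-fold difference or more, which is 1 on the log2 scale. Differences are given as the first group minus the second, with the standard error (SE) of the fit. The arrays of pESC-B and piPS-2F were dimmer, with a mean intensity of 287 to 327, than the other 6, with 476 to 625, and 38.7% to 46.1% of probes were detected per array. No label gives a batch, so brightness and group cannot be told apart in comparisons of these 2 lines with the others. The markers fitted the labels. All 8 pluripotency markers were detected on both arrays of each pluripotent line and 1 of 8 in each neural line, while 6 of the 7 neural stem cell markers with a probe were detected in both neural lines, with Pax6 on none of their arrays.

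Promoter sequences of 6 members are shown because their transcripts carry the patterns described below: a shared neural excess (Hmgcs1, Cyp51), lower signals in 1 or 2 pluripotent lines (Insig1 on its brightest probe, Idi1, Msmo1), and a pluripotent excess (Ebp). Each is the 250 bases before the start of the gene in RefSeq, build GRCm38.p6, written 5′ to 3′ on the gene's strand. Capitals mark the core of the sterol regulatory element, spelled CACNCCAC, and the CCAAT box, each searched on both strands, so that ATTGG is a CCAAT box read from the opposite strand. The windows are chr13:119690101-119690350 on the plus strand for Hmgcs1, chr5:4104698-4104947 on the minus strand for Cyp51, chr5:28071162-28071411 on the plus strand for Insig1, chr13:8885356-8885605 on the plus strand for Idi1, chr8:64733579-64733828 on the minus strand for Msmo1, and chrX:8193513-8193762 on the minus strand for Ebp.
Hmgcs1: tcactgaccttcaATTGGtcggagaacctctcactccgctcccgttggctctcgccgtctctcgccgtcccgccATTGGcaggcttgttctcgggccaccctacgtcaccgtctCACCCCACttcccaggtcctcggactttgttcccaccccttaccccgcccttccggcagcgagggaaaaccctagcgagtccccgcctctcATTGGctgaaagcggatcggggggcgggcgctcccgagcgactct
Cyp51: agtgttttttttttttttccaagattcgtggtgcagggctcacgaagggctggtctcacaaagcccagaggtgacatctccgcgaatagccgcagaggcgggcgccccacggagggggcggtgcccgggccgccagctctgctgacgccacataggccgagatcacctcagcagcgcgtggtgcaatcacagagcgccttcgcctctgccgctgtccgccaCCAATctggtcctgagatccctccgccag
Insig1: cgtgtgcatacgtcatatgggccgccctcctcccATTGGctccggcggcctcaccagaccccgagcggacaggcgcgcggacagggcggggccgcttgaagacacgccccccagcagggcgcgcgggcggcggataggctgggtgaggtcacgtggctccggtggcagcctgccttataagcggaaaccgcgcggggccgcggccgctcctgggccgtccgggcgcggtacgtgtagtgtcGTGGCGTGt
Idi1: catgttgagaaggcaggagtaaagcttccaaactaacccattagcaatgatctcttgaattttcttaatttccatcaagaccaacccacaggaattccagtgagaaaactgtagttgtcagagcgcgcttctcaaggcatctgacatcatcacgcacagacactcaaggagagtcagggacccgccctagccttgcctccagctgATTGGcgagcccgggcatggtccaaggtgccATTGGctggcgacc
Msmo1: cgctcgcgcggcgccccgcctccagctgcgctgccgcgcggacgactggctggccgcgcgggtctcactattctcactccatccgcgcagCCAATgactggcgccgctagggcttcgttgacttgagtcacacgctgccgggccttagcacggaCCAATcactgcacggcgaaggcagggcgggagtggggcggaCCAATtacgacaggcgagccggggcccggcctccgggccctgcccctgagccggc
Ebp: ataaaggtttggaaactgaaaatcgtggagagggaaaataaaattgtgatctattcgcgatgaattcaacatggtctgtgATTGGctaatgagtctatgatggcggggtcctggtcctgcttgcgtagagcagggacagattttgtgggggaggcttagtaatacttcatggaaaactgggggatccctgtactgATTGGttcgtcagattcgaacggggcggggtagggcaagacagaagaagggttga
The element core was found in Hmgcs1, at bases -136 to -129, and in Insig1, at bases -9 to -2, counted from the start. Over windows of 300 bases that also hold the 50 bases after the start, the core stood in 2 of the 29 windows of tested members (6.9%) and in 6.24% of all 32851 windows in the table. CCAAT boxes stood in 20 of the 29 (69%) against 37.4% of all windows, the GC box GGGCGG in 23 (79.3%) against 35.7%, and the E-box CACGTG in 6 (20.7%) against 7.15%. The tested members Sqle, Fdps, Scd1, Scd2 and Stard4 had no window in the table. Windows of 1 gene can overlap, as do those of Scap and Dhcr7. These matches describe letters and were not tested against the signals.

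Many of the tested members had a lower signal in pluripotent than in neural cells, and few had a higher one. In piPS-2F against pNSC, the line of the type it was made from, 17 of 26 tested members were lower and 1 was higher. Over all genes 53.4% were called there, 26.4% lower and 27% higher. In fESC against fNSC, on other arrays, 13 were lower and 1 was higher, against 48.6% of all genes called, 24.8% lower and 23.9% higher. In pESC-B against pNSC, which shares the pNSC arrays with the first comparison, 16 were lower and 2 higher, against 51.2% of all genes called, 25.1% lower and 26.1% higher. A member that passed the filter only through the neural arrays was prone to a lower call, though Fasn, which did so, was not called. The 20 members detected on every array are therefore given as well: 12, 9 and 11 of them were lower, and 1, 1 and 2 higher. The shares of all genes above are not restricted to genes detected on every array, and the matching shares were not computed. The median difference of the 26 members was -1.93, -0.88 and -1.67 in these comparisons, against 0.03, 0.02 and 0.05 over all genes, and -1.75, -0.68 and -1.63 with members undetected in the dimmer line set at their bound.

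The members lower in both separate comparisons were 13 of 26, against 17.8% of all genes: Hmgcs1, Sqle, Cyp51, Tm7sf2, Hsd17b7, Sc5d, Dhcr7, Srebf1, Scap, Stard4, Lrp1, Scd1 and Scd2. Ebp was the member higher in both, against 17.5% of all genes. For those 13, and for Insig1 on its brightest probe, every one of the 4 neural arrays lay above every one of the 6 pluripotent arrays. This held for 25.9% of all genes. The reverse held for Ebp and Lss, against 28.1% of all genes. The highest mean of the 5 lines was in pNSC for 13 of 26 members, against 21.6% of all genes, and in fNSC for 6, against 20.7%. It was in fESC for 4, against 17.9%, in pESC-B for 2, against 19.4%, and in piPS-2F for 1, against 20.4%. Scaling each array on its median in place of quantile normalization moved the median of all genes in piPS-2F against pNSC to -0.45 and gave 20 members lower and 0 higher, with Ebp at 0.99 and so short of 2-fold. The share of higher genes among all calls fell from 50.6% to 33% under that scaling.

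**Figure D1:**
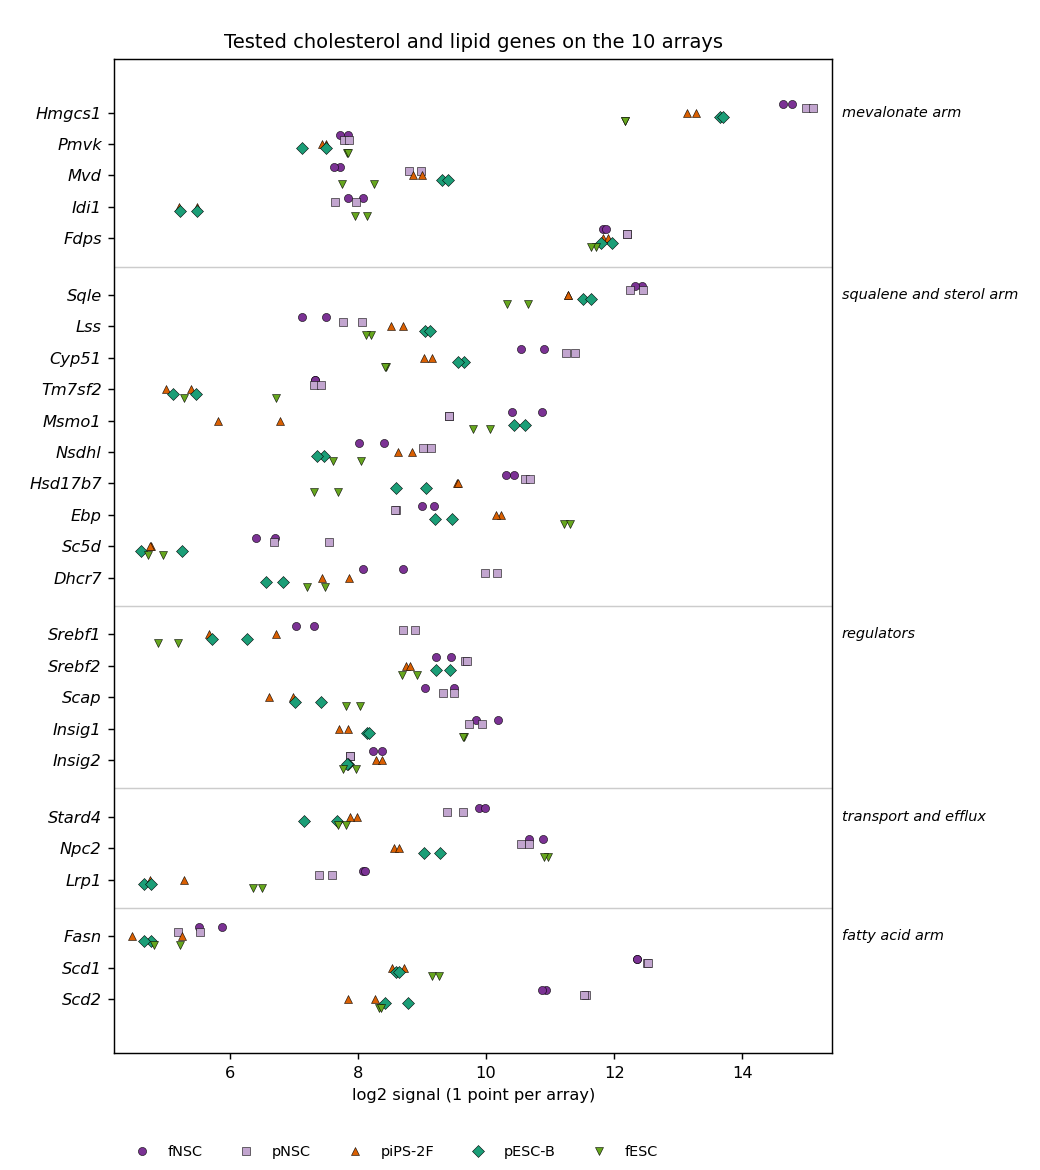
Log2 signal (horizontal axis) of the 26 tested members, 1 point per array, with colours and shapes for the 5 lines and members grouped by role. For 14 members the circles and squares of fNSC and pNSC lie to the right of all 6 pluripotent points, and for Ebp and Lss they lie to the left.

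Other cell types were followed through marker lists. All 6 astrocyte markers were detected on both arrays of fNSC and pNSC and 1 of 6 on both arrays of each pluripotent line. Of the 5 oligodendrocyte markers with a probe, Mbp, Mag, Mog and Mobp were detected on no neural array. The remaining 1 was detected on both arrays of each neural line. In piPS-2F and pESC-B 2 of the 5 were detected on both arrays, and in fESC 0. The summed linear signal of the astrocyte list was 6767 to 8125 in fNSC, 13330 to 13940 in pNSC, 6790 to 7217 in piPS-2F, 15400 to 15530 in pESC-B and 4653 to 4749 in fESC. In pESC-B only Gja1 of this list was detected, so 1 gene can carry such a sum. Feeder fibroblast markers were detected for 2 of 8 genes in the neural lines, 4 of 8 in piPS-2F and pESC-B, and 5 of 8 in fESC, with Col1a2 and Postn on no array. Their summed linear signal was 334 to 359 in fNSC, 1103 to 1163 in pNSC, 4638 to 6006 in piPS-2F, 2544 to 2587 in pESC-B and 5075 to 5615 in fESC. The part of these cell types in the differences between neural and pluripotent lines was not tested. In such bulk samples, fewer cells of a type and less RNA per cell cannot be told apart.

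In the mevalonate arm the 5 tested members did not move together. Hmgcs1, the cytosolic synthase that commits acetyl units to HMG-CoA, was the member of this arm lower in all 3 pluripotent lines than in the neural lines. Its log2 signal was 14.64 and 14.77 in fNSC, 15.002 and 15.10 in pNSC, 13.27 and 13.14 in piPS-2F, 13.66 and 13.70 in pESC-B, and 12.17 and 12.18 in fESC. The lines are ordered pNSC, fNSC, pESC-B, piPS-2F and fESC with no overlap of arrays. The difference was -1.85 ± 0.13 (adjusted p = 3e-07) in piPS-2F against pNSC, a fold of 3.59, and -2.53 ± 0.13 (adjusted p = 3.1e-08) in fESC against fNSC, a fold of 5.78.

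Idi1, the isomerase that makes dimethylallyl diphosphate, separated the lines in another way. It read 8.07 and 7.84 in fNSC, 7.64 and 7.97 in pNSC, 5.21 and 5.48 in piPS-2F, 5.49 and 5.22 in pESC-B, and 7.95 and 8.14 in fESC. Both neural lines and fESC overlapped at the upper level, while piPS-2F and pESC-B overlapped at the lower one, where the probe was detected on 1 of the 2 piPS-2F arrays and on neither pESC-B array. The difference in piPS-2F against pNSC was -2.46 ± 0.18 (adjusted p = 4.4e-07), and pESC-B was at least 4.87-fold below pNSC and at least 5.74-fold below fESC. In fESC against fNSC it was 0.09 ± 0.18 (adjusted p = 0.65).

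Mvd, the decarboxylase that forms isopentenyl diphosphate, read 7.73 and 7.62 in fNSC, 8.79 and 8.99 in pNSC, 8.86 and 8.99 in piPS-2F, 9.32 and 9.41 in pESC-B, and 7.75 and 8.25 in fESC. Its lowest arrays were those of fNSC and fESC and its highest those of pESC-B, and it was called in neither separate comparison of pluripotent with neural cells (0.03 and 0.32). Pmvk, a kinase of mevalonate phosphate, ranged from 7.12 to 7.87 over the 10 arrays and was called in none of the 7 pairwise comparisons. Fdps, the farnesyl diphosphate synthase, ranged from 11.64 to 12.21 and was also called in none.

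In the squalene and sterol arm, 7 of 10 tested members were lower in piPS-2F than in pNSC and 6 were lower in fESC than in fNSC, with Ebp higher in both. Sqle, the squalene epoxidase and a rate-limiting enzyme of the arm, read 12.43 and 12.32 in fNSC, 12.24 and 12.44 in pNSC, 11.28 and 11.28 in piPS-2F, 11.51 and 11.64 in pESC-B, and 10.32 and 10.65 in fESC. The neural lines overlapped each other and lay above the pluripotent lines, with fESC lowest. The difference was -1.07 ± 0.15 (adjusted p = 7.6e-05) in piPS-2F against pNSC and -1.89 ± 0.15 (adjusted p = 1e-06) in fESC against fNSC, and it was short of 2-fold in pESC-B against pNSC (-0.77). The first of these differences was -0.96 without the second pNSC array and -0.98 with the mean of both Sqle probes, and so not called.

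Cyp51, the lanosterol demethylase, read 10.91 and 10.55 in fNSC, 11.24 and 11.39 in pNSC, 9.03 and 9.16 in piPS-2F, 9.66 and 9.57 in pESC-B, and 8.44 and 8.43 in fESC. The neural arrays lay above all pluripotent arrays, and among the latter pESC-B was highest and fESC lowest, again without overlap. The fall was nearly equal in both separate comparisons, at -2.22 ± 0.15 for piPS-2F against pNSC and -2.30 ± 0.15 for fESC against fNSC (adjusted p = 2.8e-07 and 2.3e-07). Its difference between those comparisons was 0.07 ± 0.21 (adjusted p = 0.81). Hmgcs1, Cyp51 and the brighter probe of Sqle shared the order of the pluripotent lines, with pESC-B above piPS-2F and piPS-2F above fESC on every array.

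Tm7sf2, a sterol reductase acting after Cyp51, read 7.32 and 7.34 in fNSC, 7.31 and 7.43 in pNSC, 5.40 and 5.00 in piPS-2F, 5.12 and 5.47 in pESC-B, and 5.28 and 6.72 in fESC. It was detected on all neural arrays, on none of piPS-2F or pESC-B, and on 1 of the fESC arrays, and the fESC pair was the most spread, with an SD of 1.01 (n = 2). It was at least 3.75-fold lower in piPS-2F than in pNSC (adjusted p = 0.00028). The fESC difference was -1.33 ± 0.36 (adjusted p = 0.007), but it was -0.61 and not called without the first fESC array and -2.05 without the second.

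Sc5d, a sterol desaturase near the end of the pathway, read 6.41 and 6.71 in fNSC, 6.70 and 7.55 in pNSC, 4.77 and 4.75 in piPS-2F, 4.61 and 5.26 in pESC-B, and 4.97 and 4.73 in fESC. It was detected on the 4 neural arrays and on no pluripotent array. It was at least 3.16-fold lower in piPS-2F than in pNSC (adjusted p = 2.1e-05) and at least 1.56-fold lower in fESC than in fNSC (adjusted p = 0.00026).

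Dhcr7, the reductase that makes cholesterol from dehydrocholesterol, read 8.09 and 8.70 in fNSC, 10.17 and 9.99 in pNSC, 7.44 and 7.87 in piPS-2F, 6.56 and 6.83 in pESC-B, and 7.48 and 7.21 in fESC. The pNSC arrays were far above the rest, fNSC followed, and the pluripotent lines were lower, with piPS-2F and fESC overlapping. The difference was -2.43 ± 0.23 (adjusted p = 3.2e-06) in piPS-2F against pNSC, -3.39 ± 0.23 (adjusted p = 2.8e-07) in pESC-B against pNSC, and -1.05 ± 0.23 (adjusted p = 0.0016) in fESC against fNSC. The last value rested on single arrays: it was -0.74 without the second fNSC array and -0.91 without the second fESC array.

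Hsd17b7, the ketosteroid reductase of sterol demethylation, read 10.44 and 10.31 in fNSC, 10.61 and 10.68 in pNSC, 9.55 and 9.56 in piPS-2F, 8.59 and 9.06 in pESC-B, and 7.32 and 7.69 in fESC. The neural lines were highest, followed without overlap by piPS-2F, pESC-B and fESC. The difference was -1.10 ± 0.18 (adjusted p = 0.00024) in piPS-2F against pNSC and -2.87 ± 0.18 (adjusted p = 1.7e-07) in fESC against fNSC.

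Ebp, the sterol isomerase, ran the other way. It read 9.18 and 9.01 in fNSC, 8.60 and 8.58 in pNSC, 10.23 and 10.16 in piPS-2F, 9.48 and 9.20 in pESC-B, and 11.22 and 11.32 in fESC. All pluripotent arrays lay above all neural arrays, and fESC was highest, then piPS-2F, then pESC-B. The rise was 1.61 ± 0.14 (adjusted p = 2e-06) in piPS-2F over pNSC and 2.17 ± 0.14 (adjusted p = 2.1e-07) in fESC over fNSC, whereas pESC-B over pNSC was 0.75 and short of 2-fold. Lss, the lanosterol synthase, ranged from 7.12 to 8.06 on neural and from 8.12 to 9.12 on pluripotent arrays, and was called in pESC-B against pNSC alone (1.17 ± 0.17 (adjusted p = 9e-05), which was 0.57 and not called with arrays scaled on their median).

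Among the regulators, Srebf1 and Scap were lower in both separate comparisons, while Srebf2 was not called. Srebf1, which encodes the factor with the stronger pull on fatty acid genes, read 7.31 and 7.03 in fNSC, 8.71 and 8.89 in pNSC, 5.68 and 6.73 in piPS-2F, 6.27 and 5.72 in pESC-B, and 5.19 and 4.89 in fESC. The pNSC arrays were highest, fNSC followed, and fESC lay lowest with its probe detected on neither array. The difference was -2.60 ± 0.31 (adjusted p = 2.1e-05) in piPS-2F against pNSC, and fESC was at least 2.39-fold below fNSC (adjusted p = 1e-04). These values come from 1 of the 2 Srebf1 probes, and the other was detected on 0 of 10 arrays, at 4.27 to 4.62.

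Scap, the sterol-sensing escort, read 9.05 and 9.49 in fNSC, 9.51 and 9.33 in pNSC, 6.99 and 6.61 in piPS-2F, 7.43 and 7.01 in pESC-B, and 7.81 and 8.03 in fESC. The neural lines overlapped each other, fESC came next, and pESC-B and piPS-2F were lowest without overlapping. The difference was -2.62 ± 0.21 (adjusted p = 1e-06) in piPS-2F against pNSC and -1.35 ± 0.21 (adjusted p = 0.00017) in fESC against fNSC. Srebf2, which encodes the factor with the stronger pull on sterol genes, ranged from 9.23 to 9.70 on neural and from 8.69 to 9.44 on pluripotent arrays. Its differences were -0.90, -0.54 and -0.35 in the 3 comparisons of pluripotent with neural lines, each short of 2-fold.

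Insig1, the retention protein whose own gene is a known target of the pathway, read 10.19 and 9.84 in fNSC, 9.74 and 9.94 in pNSC, 7.84 and 7.70 in piPS-2F, 8.14 and 8.17 in pESC-B, and 9.66 and 9.64 in fESC on the brightest of its probes. On that probe both neural lines lay just above fESC, and pESC-B and piPS-2F were far lower. The difference was -2.06 ± 0.15 (adjusted p = 5.1e-07) in piPS-2F against pNSC and -0.37 ± 0.15 (adjusted p = 0.043) in fESC against fNSC, the latter short of 2-fold. The other kept probes of Insig1, given with those of Insig2 further on, did not have this pattern. They were not called in piPS-2F against pNSC, and the dimmest was called lower in fESC against fNSC.

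Of the transport genes, Stard4, a soluble sterol carrier of the cytosol, read 9.89 and 9.98 in fNSC, 9.39 and 9.64 in pNSC, 7.98 and 7.88 in piPS-2F, 7.68 and 7.16 in pESC-B, and 7.82 and 7.69 in fESC. All neural arrays were above all pluripotent arrays, with fNSC highest. The difference was -1.59 ± 0.18 (adjusted p = 1.4e-05) in piPS-2F against pNSC, -2.10 ± 0.18 (adjusted p = 1.8e-06) in pESC-B against pNSC and -2.18 ± 0.18 (adjusted p = 1.3e-06) in fESC against fNSC.

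Lrp1, an endocytic receptor that takes up lipoproteins carrying apolipoprotein E, read 8.08 and 8.11 in fNSC, 7.40 and 7.60 in pNSC, 5.29 and 4.76 in piPS-2F, 4.67 and 4.76 in pESC-B, and 6.37 and 6.50 in fESC. The order was fNSC, pNSC and fESC without overlap, and then piPS-2F and pESC-B, where no array detected the probe. It was at least 4.1-fold lower in piPS-2F and at least 3.93-fold lower in pESC-B than in pNSC (adjusted p = 4.5e-07 and 2e-07). In fESC against fNSC the difference was -1.66 ± 0.18 (adjusted p = 1e-05).

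Npc2, the small lysosomal protein that hands cholesterol on for export, read 10.89 and 10.67 in fNSC, 10.54 and 10.67 in pNSC, 8.56 and 8.65 in piPS-2F, 9.29 and 9.03 in pESC-B, and 10.97 and 10.91 in fESC. Both neural lines and fESC were at 1 high level, and pESC-B and piPS-2F were lower. The difference was -2.004 ± 0.14 (adjusted p = 4.5e-07) in piPS-2F and -1.45 ± 0.14 (adjusted p = 5.6e-06) in pESC-B against pNSC, but 0.16 ± 0.14 (adjusted p = 0.32) in fESC against fNSC. The efflux pumps Abca1 and Abcg1, which load cholesterol onto lipoproteins, were detected on 1 of 10 and 0 of 10 arrays. Both probes of Nr1h3, an oxysterol receptor that switches on those pumps, were detected on 0 of 10, and the probe of Acat1, a thiolase that forms acetoacetyl-CoA, on 2 of 10.

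Among the fatty acid genes, Scd1 had the widest difference of the tested members in both separate comparisons. Scd1, a desaturase that puts a double bond into stearoyl-CoA, read 12.36 and 12.36 in fNSC, 12.52 and 12.52 in pNSC, 8.73 and 8.53 in piPS-2F, 8.60 and 8.64 in pESC-B, and 9.15 and 9.26 in fESC. Neural and pluripotent lines formed separate levels, and fESC was the highest of the pluripotent lines. The difference was -3.89 ± 0.13 (adjusted p = 1.8e-09) in piPS-2F against pNSC, a fold of 14.9, and -3.15 ± 0.13 (adjusted p = 7.4e-09) in fESC against fNSC, a fold of 8.89.

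Scd2, a desaturase of the same family that is strong in brain, read 10.94 and 10.87 in fNSC, 11.56 and 11.53 in pNSC, 7.85 and 8.27 in piPS-2F, 8.42 and 8.78 in pESC-B, and 8.33 and 8.36 in fESC. The neural lines were again above all pluripotent lines, with pNSC highest. The difference was -3.49 ± 0.17 (adjusted p = 2.8e-08) in piPS-2F against pNSC and -2.56 ± 0.17 (adjusted p = 2.8e-07) in fESC against fNSC. Fasn, the fatty acid synthase, was detected on 3 of the 10 arrays, all neural, ranged from 4.47 to 5.88, and was called in none of the 7 pairwise comparisons.

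**Figure D2:**
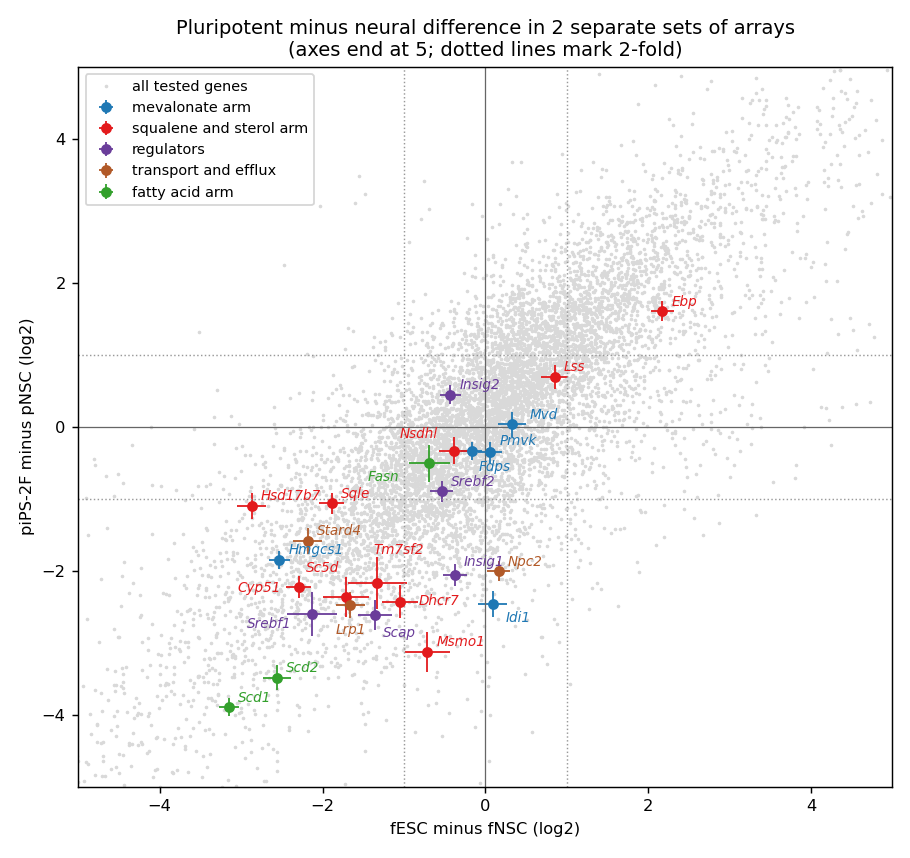
Difference of fESC minus fNSC (horizontal axis) against piPS-2F minus pNSC (vertical axis), both log2, for the 26 tested members in colours by role with SE bars, over all tested genes in grey; the axes end at 5 and the dotted lines mark 2-fold. The 13 members lower on both axes stand in the lower left and Ebp in the upper right. Npc2, Idi1, Msmo1 and, on its brightest probe, Insig1 stand low on the vertical axis and near 0 on the horizontal axis or short of 2-fold there.

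Whether the pluripotent minus neural difference was equal on the parthenogenetic and the female side was tested with an interaction contrast, piPS-2F minus pNSC less fESC minus fNSC. The pluripotent line is reprogrammed on the parthenogenetic side and embryonic on the female side. Parental origin and reprogramming therefore cannot be told apart in this contrast. It called 7 of 26 tested members (26.9%), 6 with the lower parthenogenetic difference and 1 with the higher, against 28.6% of all genes, 14.3% lower and 14.4% higher. Idi1 had the widest difference between sides, at -2.55 ± 0.25 (adjusted p = 4.4e-05), and Npc2 was -2.17 ± 0.20 (adjusted p = 3.4e-05). Both were lower in piPS-2F than in pNSC and were not called in fESC against fNSC. Scap was -1.26 ± 0.30 (adjusted p = 0.0062) and Dhcr7 -1.38 ± 0.32 (adjusted p = 0.0058), being lower on both sides and by more on the parthenogenetic one. Insig1 was -1.69 ± 0.21 (adjusted p = 0.00018) on its brightest probe. Hsd17b7 was the member called with the larger fall on the female side, at 1.78 ± 0.25 (adjusted p = 0.00039). It lies on chromosome 1, whose genes had a median of 0.51 in piPS-2F against fESC, against 0.15 over the other autosomes. The part of that shift in the value was not tested. The dimmer of the Sqle probes was also called with the larger fall on the female side (1.17 ± 0.30, adjusted p = 0.011 over all kept probes). The brighter one, used for the gene, was short of 2-fold (0.82). The dimmer Insig2 probe, described further on, was called the other way (-1.15).

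Msmo1, the methylsterol oxidase of sterol demethylation, was far lower in piPS-2F than in the 4 other lines. It read 10.88 and 10.41 in fNSC, 9.43 and 9.42 in pNSC, 5.81 and 6.78 in piPS-2F, 10.44 and 10.61 in pESC-B, and 9.80 and 10.06 in fESC. The 2 piPS-2F arrays differed by about 1 on the log2 scale and still lay more than 2 below every other array. The difference was -3.13 ± 0.28 (adjusted p = 2.3e-06) against pNSC, -4.23 ± 0.28 (adjusted p = 4.4e-06) against pESC-B, a fold of 18.7, and -3.63 ± 0.28 (adjusted p = 3.8e-06) against fESC. The interaction was -2.41 ± 0.39 (adjusted p = 0.00081), and fESC against fNSC was -0.72. In pESC-B against pNSC, both parthenogenetic, Msmo1 was higher, at 1.10 ± 0.28 (adjusted p = 0.0043). The gene has 1 probe on this array, detected on all 10 arrays.

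Idi1, Insig1, Lrp1 and Npc2 shared another pattern. In these 4 of 26 members the measured signals of all piPS-2F and pESC-B arrays lay more than 2-fold below those of all 6 other arrays, which was so for 2.41% of all genes. Of the 20 members detected on every array, 2 did so, Insig1 on its brightest probe and Npc2. The matching share of genes detected on every array was not computed. The signals of Lrp1 in both lines and of Idi1 in pESC-B were not above background, and with that limit Lrp1 was at least 1.96-fold and 1.87-fold below fESC in piPS-2F and pESC-B. Those 4 arrays are also the dimmer ones, with a mean intensity of 287 to 327 against 476 to 625, and the part of brightness in the pattern was not tested.

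**Figure D3:**
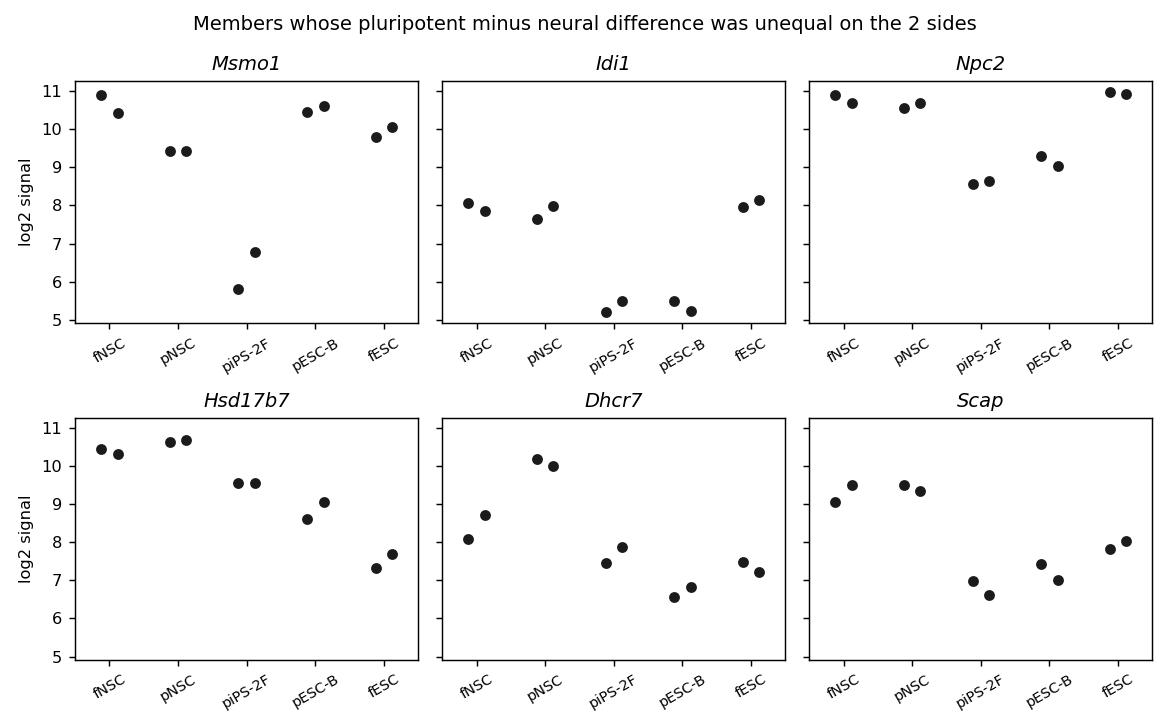
Log2 signal (vertical axis, the same in all panels) of 6 members called in the interaction contrast, by line, with 1 point per array. Msmo1 drops in piPS-2F to 5.81 and 6.78, Idi1 and Npc2 are low in piPS-2F and pESC-B together, and Hsd17b7 is lowest in fESC.

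The pluripotent lines were then compared with each other. In piPS-2F against pESC-B, 1 of 26 was higher and 1 lower, against 9.45% of all genes called, 4.5% higher and 4.95% lower. Msmo1 was the lower one. The higher one was Nsdhl, a dehydrogenase of sterol demethylation, which read 8.01 and 8.41 in fNSC, 9.14 and 9.01 in pNSC, 8.85 and 8.63 in piPS-2F, 7.47 and 7.36 in pESC-B, and 7.61 and 8.05 in fESC on its brightest probe. The piPS-2F arrays stood between pNSC and fNSC, and pESC-B was lowest. The difference was 1.32 ± 0.19 (adjusted p = 0.00059), and with the mean of its 4 probes it was 0.98 and short of 2-fold.

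Nsdhl lies on the X chromosome, where genes as a whole ran higher in piPS-2F than in the pESC-B line. The median difference of 328 tested X-linked genes was 0.29, with 41 higher and 10 lower, against -0.04 over the autosomes other than chromosome 1. The 452 genes of chromosome 1 had a median of 0.33, with 52 higher and 15 lower. Hsd17b7 and Insig2 lie on chromosome 1 and read 0.73 and 0.49 in this comparison, and Ebp, on the X chromosome, read 0.86. None of these 3 reached 2-fold, and the part of the chromosome-wide shift in the values was not tested.

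Against fESC more members differed. In piPS-2F, 3 of 26 were higher and 7 lower, against 23.7% of all genes called, 11.5% higher and 12.2% lower. The higher members were Hmgcs1 (1.03), Hsd17b7 (2.05) and Srebf1, the last at least 1.22-fold. Hsd17b7 lies on chromosome 1, whose 452 genes had a median of 0.51 here, with 122 higher and 39 lower, against 0.15 over the other autosomes. Lower were Idi1 (-2.70), Msmo1 (-3.63), Ebp (-1.07), Scap (-1.12), Insig1 (-1.87 on its brightest probe), Npc2 (-2.34) and Lrp1, at least 1.96-fold. Ebp lies on the X chromosome, whose 328 genes had a median of -0.04 here, with 23 higher and 55 lower. The part of these chromosome-wide shifts in the values was not tested. In this comparison Hmgcs1 was 0.83 with arrays scaled on their median and 0.97 without the first piPS-2F array, and so short of 2-fold. Without the second piPS-2F array Scap was -0.93 and Srebf1 0.64, and both lost their call, as did Srebf1 without the second fESC array (1.01).

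In pESC-B against fESC, 5 members were higher and 5 lower, against 27% of all genes called, 14.2% higher and 12.8% lower. The higher members were Hmgcs1 (1.504), Mvd (1.37), Sqle (1.09), Cyp51 (1.18) and Hsd17b7 (1.32). The lower were Idi1, at least 5.74-fold, Ebp (-1.93), Insig1 (-1.49 on its brightest probe), Npc2 (-1.78) and Lrp1, at least 1.87-fold. Without the first fESC array Sqle was 0.92 and not called. This comparison shares the fESC arrays with the preceding one. The median of the members was -0.06 in piPS-2F and -0.17 in pESC-B against fESC, where all genes had a median of 0.15 in both. For the 20 members detected on every array it was 0.18 and 0.09.

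The neural lines differed in 4 members, by the probe used for each gene. In pNSC against fNSC, 3 were higher and 1 lower, against 11.3% of all genes called, 5.11% higher and 6.24% lower. Dhcr7 was higher by 1.69 ± 0.23 (adjusted p = 0.00033), Srebf1 by 1.63 ± 0.31 (adjusted p = 0.0028) and Mvd by 1.22 ± 0.17 (adjusted p = 5e-04). Msmo1 was lower, at -1.22 ± 0.28 (adjusted p = 0.0076), and it was -0.99 and no longer called without the first fNSC array. The summed astrocyte markers were also higher in pNSC, as given above. Such a sum can rest on 1 bright gene, and the part of these markers in the differences was not tested.

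The probes of a gene did not always move together. Insig1 has 3 kept probes. Its second read 8.43 and 8.60 in fNSC, 8.69 and 8.69 in pNSC, 8.56 and 8.04 in piPS-2F, 7.90 and 8.30 in pESC-B, and 7.66 and 7.92 in fESC, and the dimmest 8.69 and 8.61 in fNSC, 8.91 and 8.79 in pNSC, 8.30 and 7.90 in piPS-2F, 7.99 and 8.26 in pESC-B, and 7.21 and 7.55 in fESC. On these fESC had the lowest mean of the pluripotent lines, whereas on the brightest probe fESC was the highest pluripotent line. In piPS-2F against pNSC the second probe gave -0.39 and the dimmest -0.75, and neither was called. In fESC against fNSC the second gave -0.72 and was not called. There the dimmest was called lower, at -1.27 ± 0.18 (adjusted p = 0.00011 over all kept probes). In piPS-2F against fESC the brightest probe gave -1.87, and the others 0.51 and 0.72, and in the interaction it gave -1.69 against 0.33 and 0.52. With the mean of the probes Insig1 was -1.07 in piPS-2F against pNSC, and it was not called in pESC-B against pNSC (just short of 2-fold), in piPS-2F against fESC (-0.22), in pESC-B against fESC (-0.15) or in the interaction (-0.28).

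Insig2, the second retention protein, read 8.37 and 8.24 in fNSC, 7.88 and 7.87 in pNSC, 8.28 and 8.37 in piPS-2F, 7.85 and 7.83 in pESC-B, and 7.97 and 7.77 in fESC on the probe used. That probe was called in none of the 7 pairwise comparisons. Its other kept probe read 8.10 and 7.94 in fNSC, 7.48 and 7.52 in pNSC, 6.06 and 6.15 in piPS-2F, 8.08 and 8.09 in pESC-B, and 7.77 and 7.78 in fESC, with both piPS-2F arrays far below the other 8. On it piPS-2F was lower than pNSC by -1.40 ± 0.13 (adjusted p = 3.2e-06 over all kept probes), than pESC-B by -1.98 and than fESC by -1.67, while the probe used gave 0.45, 0.49 and 0.46. A further probe of Insig1 and a further probe of Insig2 were not kept, and both were detected on 0 of 10 arrays. The probe sequences were not used here, so which transcripts each one reads was not tested.

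Both kept probes of Sqle placed fESC lowest. On the dimmer one pESC-B (9.19 and 9.72) and piPS-2F (9.40 and 9.23) overlapped. The dimmer one gave -0.90 ± 0.22 in piPS-2F against pNSC, short of the 2-fold that the brighter one just passed. For Nsdhl, 2 of 4 probes were called in piPS-2F against pESC-B (1.32 and 1.27), and the others gave 0.98 and 0.36 in the same direction. In piPS-2F against pNSC, 1 of the 4 was called lower (-1.33), against -0.34 on the probe used. That same probe was called higher in pNSC against fNSC (1.275, adjusted p = 0.00035 over all kept probes). There the probe used gave 0.86 and the others 0.82 and 0.40, all short of 2-fold.

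**Figure D4:**
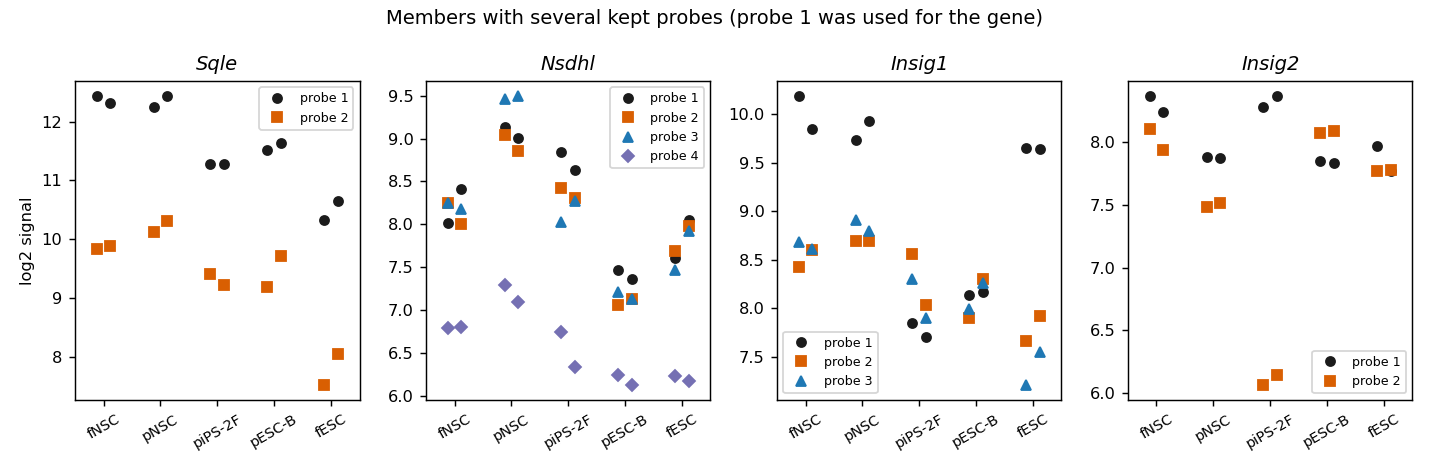
Log2 signal (vertical axis, scaled per panel) of each kept probe of Sqle, Nsdhl, Insig1 and Insig2, by line, with 1 point per array; probe 1 is the brightest and was used for the gene. The Insig2 probes part in piPS-2F, at 8.28 and 8.37 on probe 1 and 6.06 and 6.15 on probe 2, and the Insig1 probes part in fESC.

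Other genes of lipid and sterol metabolism were taken from a list of 64, of which 52 had a probe and 46 were tested. In piPS-2F against pNSC, 19 of the 46 were lower and 10 higher, and in fESC against fNSC 16 were lower and 5 higher, beside the shares of all genes given above. Their median difference was -0.45 and -0.36. In piPS-2F against pESC-B 3 of the 46 were higher and 3 lower, against 4.5% and 4.95% of all genes. In pNSC against fNSC it was also 3 and 3, against 5.11% and 6.24% of all genes.

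By measured signal, Me1, Fabp5 and Lipa had the widest falls of this list in piPS-2F against pNSC. Me1, the malic enzyme that supplies reducing power for lipid synthesis, read 11.94 and 11.94 in fNSC, 11.75 and 11.87 in pNSC, 6.50 and 6.51 in piPS-2F, 6.87 and 6.95 in pESC-B, and 8.69 and 8.82 in fESC. Every pluripotent array lay more than 2-fold below every neural array, with fESC between the neural lines and the other pluripotent lines. The difference was -5.31 ± 0.12 (adjusted p = 2.9e-10) in piPS-2F against pNSC. Fabp5, a fatty acid binding protein, was detected on all neural arrays and on no pluripotent array, and it was at least 7.89-fold lower in piPS-2F than in pNSC and at least 10.6-fold lower in fESC than in fNSC. Lipa, the lysosomal lipase that frees cholesterol from its esters, was at least 5.53-fold and 7.04-fold lower in the same comparisons. Fads2, a fatty acid desaturase, was -3.41 ± 0.18 in fESC against fNSC.

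The widest rises were in Lbr, Rxra, Fntb and Tspo. Lbr, a nuclear envelope protein that reduces the same sterol bond as Tm7sf2, read 10.31 and 9.79 in fNSC, 10.03 and 10.10 in pNSC, 12.99 and 12.86 in piPS-2F, 12.52 and 12.64 in pESC-B, and 11.71 and 11.75 in fESC. All pluripotent arrays lay above all neural arrays, the reverse of Tm7sf2, with piPS-2F highest. The difference was 2.86 ± 0.17 (adjusted p = 1.1e-07) in piPS-2F against pNSC and 1.68 ± 0.17 (adjusted p = 6.7e-06) in fESC against fNSC. Rxra, the partner receptor of the oxysterol receptors, was detected on no neural array, and it rose at least 4.59-fold from pNSC to piPS-2F and at least 4.35-fold from fNSC to fESC. Fntb, a subunit of the enzyme that attaches farnesyl groups to proteins, rose by 2.36 ± 0.13 and 2.27 ± 0.13. Tspo, a mitochondrial cholesterol-binding protein, rose by 2.42 ± 0.17 in fESC over fNSC.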

How the data were processed

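Per the labels' protocols, RNA purified on columns with a DNA digestion step was linearly amplified and given a biotin label. The authors deposited a table of linear intensity per probe and array that was not normalized, and 22.9% to 28.3% of its values per array lie below 0. The same deposited table gives a detection p-value per probe and array. The other deposited table gives values that the authors had processed, read here as log2 from their range of 1.30 to 15.26, with 1 median (3.92) in every column and the same ranks as the intensities of the same array. No source used here states its log base. It served as an alternative. The submitters' processing notes name BeadStudio 3.2, RMA and lumi, with no settings.

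Intensities were taken through neqc of limma 3.58.1 (R 4.3.3), which models background by means of the detection p-values, adds an offset (16), applies quantile normalization and converts to log2. A probe was kept where both arrays of 1 or more groups detected it at p under 0.01 (13564 of 25697), and the brightest kept probe of each gene was used. The offset makes differences of dim genes smaller, and quantile normalization assumes 1 shared distribution. The linear model gave each group its own mean over all 10 arrays (lmFit and eBayes, 5 residual degrees of freedom), with Benjamini-Hochberg adjustment over 9220 genes in each of 7 pairwise comparisons and 1 interaction. The scripts were tested on simulated data. A fold against a group with no detected array is a lower bound: the brighter mean against, per dim array, the higher of its own signal and the lowest detected signal. The correlation across genes, which are no independent replicates, was 0.990 to 0.996 within pairs of duplicates, and no pair held identical intensities. The number of arrays limits the precision.

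Members, gene lists and the rule for naming genes were chosen with earlier results of these data known. Members called in the same direction in both separate comparisons of pluripotent with neural lines, in the interaction, in piPS-2F against pESC-B or in pNSC against fNSC, and those whose probes disagreed, are given on all arrays. Related genes are named for up to 3 of the widest called differences each way in piPS-2F against pNSC and in fESC against fNSC. Symbols come from the deposited tables. Of 25697 probes, 23978 had 1 symbol and 1719 none, and a RefSeq table of GRCm38.p6 held the Entrez identifier of 23962. Promoters of 26 members, in 35 windows, come from RefSeq, and these are not the same genes as the 26 tested members. They include the untested Mvk, Acat2, Abca1, Nr1h2 and Nr1h3 and lack the tested Sqle, Fdps, Scd1, Scd2 and Stard4. Stard4 is on a chromosome whose sequences are not printed. Alternatives were another offset, no background model, median scaling, the authors' processed values, looser and stricter detection filters, the mean of a gene's probes, the compared groups alone, the replicate number as a block, and each array left out.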

Additional observations from a re-analysis of the deposited data

Results flagged for a closer look

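Of the 26 tested members, 7 (26.9%) had a pluripotent minus neural difference that was unequal on the parthenogenetic side (piPS-2F minus pNSC) and the female side (fESC minus fNSC) by the interaction test of limma. Over all genes it was 28.6%, so calls in either direction were not more frequent among the members. The difference between sides was -2.55 ± 0.25 (adjusted p = 4.4e-05) for Idi1, -2.41 ± 0.39 (adjusted p = 0.00081) for Msmo1, -2.17 ± 0.20 (adjusted p = 3.4e-05) for Npc2, -1.69 ± 0.21 (adjusted p = 0.00018) for Insig1, -1.38 ± 0.32 (adjusted p = 0.0058) for Dhcr7, -1.26 ± 0.30 (adjusted p = 0.0062) for Scap and 1.78 ± 0.25 (adjusted p = 0.00039) for Hsd17b7. Idi1, Npc2 and Insig1 were low in piPS-2F and in pESC-B, whose arrays are dimmer than the rest, and the part of brightness was not tested. Msmo1 was low in piPS-2F alone, on its only probe. The value of Insig1 belongs to its brightest probe, and the other 2 kept probes gave 0.33 and 0.52. For Dhcr7 the female-side difference fell short of 2-fold without the second fNSC array. Hsd17b7 lies on chromosome 1, whose genes had a median of 0.51 in piPS-2F against fESC, against 0.15 over the other autosomes. The part of that shift in its value was not tested. The sides also differ in a reprogrammed against an embryonic line, so parental origin and reprogramming cannot be told apart. Groups of 2 arrays allow no search for single outlying arrays.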

How the results depend on the processing

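The 83 called member differences were recomputed under 19 alternatives each, which gave 1577 values. Of these, 1550 kept their direction and their call, 27 kept their direction and lost the call, and 0 changed direction. 65 of the 83 were called under every alternative, and 75 of the 83 whichever array was left out. The number of members called was 18 in piPS-2F against pNSC (17 to 20 under other settings, 17 to 18 with 1 array left out), 14 in fESC against fNSC (12 to 15, 13 to 15), 18 in pESC-B against pNSC (17 to 18, 18 to 18), 2 in piPS-2F against pESC-B (1 to 3, 2 to 3), 10 in piPS-2F against fESC (7 to 12, 9 to 11), 10 in pESC-B against fESC (9 to 11, 10 to 11), 4 in pNSC against fNSC (4 to 4, 3 to 5) and 7 in the interaction (6 to 10, 7 to 8). The mean of the kept probes left 1 called in piPS-2F against pESC-B, Msmo1, since Nsdhl fell to 0.98. Calls were also lost for Dhcr7 and Tm7sf2 in fESC against fNSC with an offset of 50 (-0.91 and -0.95), for Msmo1 in pESC-B against pNSC with median scaling (0.74), and in piPS-2F against fESC for Lrp1, Scap and Srebf1 with an offset of 50 (-0.85, -0.92 and 0.70; Lrp1 in pESC-B against fESC reached -0.998) and for Srebf1 with median scaling (0.79). An offset of 50 lowered the count over all genes from 871 to 474 in piPS-2F against pESC-B and from 1046 to 686 in pNSC against fNSC, as it shrinks dim differences. Median scaling lowered the share of higher genes among all calls from 50.9% to 36.3% in pESC-B against pNSC, from 47.6% to 34.1% in piPS-2F against pESC-B, from 48.6% to 27.8% in piPS-2F against fESC and from 50.2% to 32.7% in the interaction. The cause of these shifts was not tested. Same-numbered arrays did not deviate together (correlation -0.12 to 0.09 over 10 pairs of groups, 0 above 0.1). This does not show whether they were handled together. With the replicate number as a block the members called were 18, 14, 18, 2, 10, 10, 4 and 7 in the order above. Dim probes are limited by background: 6 of the 26 tested members were undetected on at least 1 array.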

Other observations

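Some genes of the related list had patterns that the naming rule does not take up, and they were chosen after their values were seen. Apoe, the apolipoprotein that carries lipid between cells of the brain and is a ligand of Lrp1, moved in opposite directions on the 2 sides. It read 9.95 and 9.80 in fNSC, 13.06 and 12.86 in pNSC, 10.54 and 10.40 in piPS-2F, 11.90 and 11.85 in pESC-B, and 11.56 and 11.46 in fESC. The pNSC arrays were highest and the fNSC arrays lowest, with the pluripotent lines between them. The difference was -2.49 ± 0.13 (adjusted p = 5.5e-08) in piPS-2F against pNSC, 1.63 ± 0.13 (adjusted p = 1.4e-06) in fESC against fNSC and 3.09 ± 0.13 (adjusted p = 1.9e-07) in pNSC against fNSC, and the interaction was -4.12 ± 0.19 (adjusted p = 7.4e-07). Cyp7b1, an oxysterol hydroxylase, was also higher in pNSC than in fNSC, at 2.61 ± 0.17 (adjusted p = 2.4e-06).

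Vldlr, a lipoprotein receptor of the family of Lrp1, read 10.20 and 10.01 in fNSC, 8.74 and 8.76 in pNSC, 5.73 and 5.49 in piPS-2F, 8.66 and 8.60 in pESC-B, and 6.89 and 6.82 in fESC. The piPS-2F arrays were lowest of the pluripotent lines, at -3.02 ± 0.14 (adjusted p = 3.7e-07) against pESC-B and -1.25 ± 0.14 (adjusted p = 4e-05) against fESC. Pgrmc1, a membrane protein that binds the sterol demethylase, was -2.55 ± 0.23 (adjusted p = 2.7e-05) in pNSC against fNSC and -3.02 ± 0.23 (adjusted p = 4.2e-06) in piPS-2F against fESC. Ch25h, which makes an oxysterol, was detected on both piPS-2F arrays and on no pESC-B or fESC array, and was at least 2.31-fold and 1.76-fold higher there.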
